A study of Mus musculus with 5 samples.

Results

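The genes described here carry mouse symbols of the form Ube2 plus a letter, which name the ubiquitin-conjugating (E2) enzymes. On the platform annotation 81 probe sets with a single gene symbol met that pattern, for 33 genes of 18193 measured. Each gene is represented by its probe set with the highest mean over all arrays, and 24 of the 33 genes had more than 1 probe set. Of the 33 symbols, 31 stand for E2 enzymes or their catalytically inactive relatives. The other 2 do not. Ube2d-ps is listed by RefSeq as a long non-coding RNA and named as a pseudogene, and Ube2cbp encodes a binding partner of an E2.

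E2 enzymes stand in the middle of the ubiquitin cascade. An E1 enzyme activates ubiquitin, the E2 carries it on a cysteine, and an E3 ligase directs it to a substrate. HECT-type ligases such as Trip12 take ubiquitin from the E2 onto their own cysteine first, and RING-type ligases let it pass directly from the E2. The choice of E2 often sets which kind of ubiquitin chain is built. A few E2 enzymes carry NEDD8 or ISG15 in place of ubiquitin.

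The series compares mouse E14 embryonic stem cells that are wild type (WT, 2 arrays) with cells in which both Trip12 alleles are mutated (Trip12 mut/mut, 3 arrays). Cells of both genotypes grew on mouse embryo fibroblast feeders with leukaemia inhibitory factor, and no age, sex or further allele is given. The labels do not say what the mutation is, how many clones were used, or whether feeders were removed before extraction. The arrays are named biological replicates, but nothing says that they came from separate cultures, so p-values measure the spread between these samples, which may be technical. Levels are log2 RMA values, on which a step of 1 is a 2-fold change of signal. A positive difference means a higher level in the mutant. The mutant arrays are written mut/mut 1, 2 and 3 after their replicate numbers.

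The array labelled mut/mut 1 lay near the WT arrays and apart from mut/mut 2 and 3. Trip12 read 10.17 and 10.25 in WT and 10.18 on this array, whereas mut/mut 2 and 3 read 12.09 and 12.57. Where this probe set lies relative to the mutation is not stated in the labels. Across the 33 E2 family genes its differences from the WT arrays had SDs of 0.0469 and 0.113, and the WT arrays differed from each other with an SD of 0.101. Arrays mut/mut 2 and 3 differed from the WT arrays with SDs between 0.207 and 0.306. For 13 of the 33 genes the value on the array labelled mut/mut 1 was identical, to every digit deposited, to that of a WT array, which held for 30.9% of all genes. The corresponding count was 1 for mut/mut 2 and 3 for mut/mut 3, against 16.4% and 18.1% of all genes. Counts over the family are therefore given with and without this array. Differences of single genes are given without it unless stated, with the value over all 5 arrays beside those the results turn on. No E2 family gene had an adjusted p under 0.748 in limma over all 5 arrays. Because the array is set aside for its values, p-values without it are too favourable.

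The stem cell markers were present in both genotypes, with Pou5f1 between 12.25 and 12.48 on all arrays. Their mean over 12 genes was 11.23, 11.24 and 11.23 on the WT arrays and the array labelled mut/mut 1, and 10.98 and 11.10 on mut/mut 2 and 3. Of these 12 genes 2 passed as lower in limma without the array labelled mut/mut 1 and with dim genes removed, Lin28a (-0.97) and Utf1 (-0.80), where 1.34% of all genes did. Of the 12, 9 had negative and 3 positive differences, and Esrrb, at 0.57, was higher on both mut/mut 2 and 3 without passing (limma, adjusted p = 0.0501). Fibroblast markers averaged 10.30, 10.30 and 10.28 on the former arrays and 10.74 and 10.77 on mut/mut 2 and 3, over 25 of 26 genes. Without the array labelled mut/mut 1, the mutant arrays lay above both WT arrays for 18 of these 25, against 26.7% of all genes. With dim genes removed 7 of 24 passed as higher, against 3.29% of all genes. Without that array 23 of the fibroblast markers had positive and 2 negative differences, and some, such as Mmp2 and Lum, read below WT on mut/mut 2. The median difference of the fibroblast markers was 0.53 without that array and 0.35 over all 5 arrays, where 0 passed. The mean of the fibroblast markers was thus higher, and that of the stem cell markers lower, on the arrays that carry the E2 differences, and their part in those differences was not tested. In RNA from a mixed culture, fewer cells of a type and less RNA per cell cannot be told apart.

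In its median the E2 family stayed close to its WT level. Over all 5 arrays 0 of 33 genes passed the test (limma, Benjamini-Hochberg adjustment over all 18193 genes, threshold 0.05), and 1 was below 0.05 before adjustment. Of all genes 0% passed, and 1.18% were below 0.05 before adjustment. The median difference of the family was 0.0048, and that of all genes 0.02. Differences ran from -0.24 for Ube2k to 0.49 for Ube2d-ps, with 18 genes above and 15 below 0. None exceeded 0.5 in size, a limit that 2.82% of all genes exceeded.

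Without the array labelled mut/mut 1 again 0 of 33 E2 family genes and 0% of all genes passed in limma, with 3 members below an unadjusted 0.05, Ube2j1, Ube2g2 and Ube2d-ps, against 20.5% of all genes. When genes were also required to lie above the median of all values, 5.52, on at least 2 of the 4 arrays, 30 members and 11626 genes remained. There 1 member passed, Ube2j1, with a higher level. Over all genes of that comparison 4.64% passed, 3.29% as higher and 1.34% as lower. The 3 members removed were Ube2d2b, Ube2u and Ube2l6.

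The size of the differences was small for most members. Without the array labelled mut/mut 1 the median absolute difference was 0.077 for the 33 genes and 0.13 for all genes. Differences of at most 0.2 were found for 25 members, and for 63.8% of all genes. Differences above 0.5 were found for 2 members, Ube2j1 and Ube2d-ps, or 6.06%, against 9.32% of all genes. The 95% interval of the difference lay within 1 on either side of 0 for 32 of 33 members, against 92.0% of all genes. Ube2d-ps was the exception. The interval lay within 0.5 for 20 members, against 56.8% of all genes. Neither count is a result about the family. On the chosen probe sets of the 32 genes the interval excludes a 2-fold change of signal, with the array labelled mut/mut 1 set aside for its values. Intervals of their other probe sets were not computed. The 32 include Ube2d2b and Ube2u, whose signal was dim on all 5 arrays. Intervals that also excluded 0, with no adjustment for the number of genes, were those of Ube2j1, Ube2g2 and Ube2d-ps. Over all 5 arrays the interval lay within 1 for 32 members, with Ube2j1 the exception, against 92.6% of all genes.

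**Figure D1:**
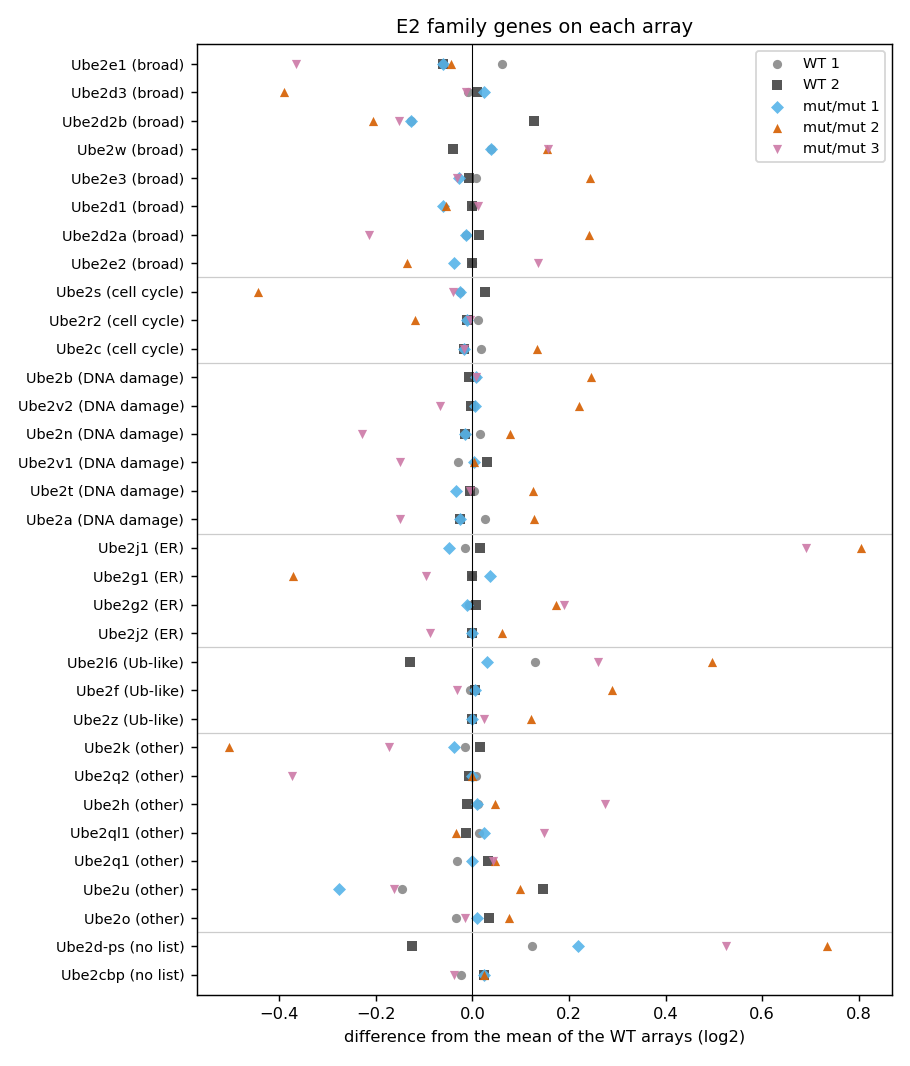
Level of each of the 33 genes on each array as a difference from the mean of the WT arrays (horizontal axis, log2), grouped by role and named with its role list. The array labelled mut/mut 1 (diamonds) lies within 0.1 of the WT mean except for Ube2d2b, Ube2u and Ube2d-ps, and Ube2j1 stands at 0.80 and 0.69 on mut/mut 2 and 3.

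**Figure D2:**
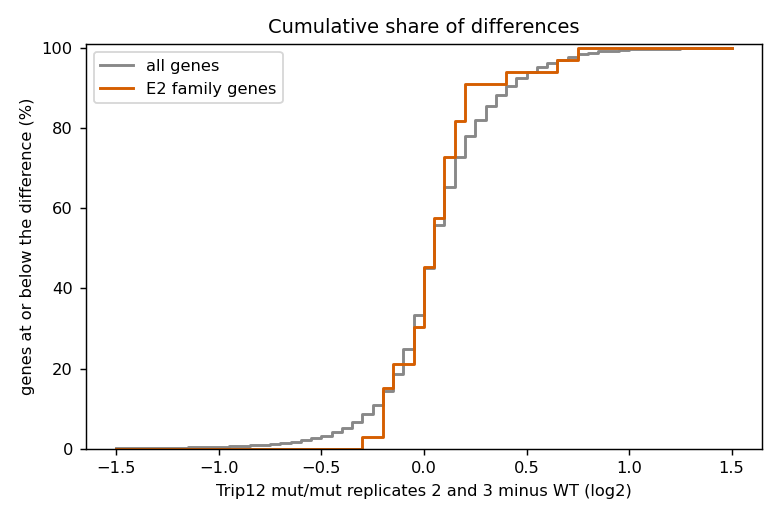
Cumulative share of genes (vertical axis, percent) at or below a difference of mut/mut 2 and 3 minus WT (horizontal axis, log2), for the 33 E2 family genes and all 18193 genes. The steeper line of the E2 family stands for its smaller median absolute difference, 0.077 against 0.13.

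Genes whose genotypes did not overlap were also counted. Over all 5 arrays the genotypes did not overlap for 2 of 33 members, Ube2d-ps above and Ube2k below WT, or 6.06%, against 12% of all genes (5.73% higher and 6.29% lower). Without the array labelled mut/mut 1 they did not overlap for 13 members, 8 higher and 5 lower, or 39.4%, against 44.2% of all genes (26.7% higher and 17.5% lower). Both shares lie below those of all genes and are no result about the family.

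Among E2 enzymes that work at the endoplasmic reticulum (ER), Ube2j1 was the member with the largest difference. It encodes a tail-anchored E2 of the ER membrane that serves the degradation of misfolded ER proteins. It read 8.33 and 8.36 in WT, 8.29 on the array labelled mut/mut 1, and 9.15 and 9.03 on mut/mut 2 and 3. Arrays mut/mut 2 and 3 thus lay above both WT arrays by far more than these differed, and the array labelled mut/mut 1 lay below them. Without that array the difference was 0.75 (SE 0.06), a 1.68-fold higher signal. The adjusted p in limma was 0.0785 over all genes and 0.042 with dim genes removed, where the 95% interval ran from 0.53 to 0.96. As labelled, over all 5 arrays, the difference was 0.48 (SE 0.29) with an adjusted p of 0.748. The call with dim genes removed was lost without WT replicate 1 (adjusted p = 0.59 in limma) or WT replicate 2 (adjusted p = 0.594 in limma), although the difference stayed at 0.73 and 0.76. It was also lost with array weights (adjusted p = 0.125 in limma). A second probe set of Ube2j1 gave a smaller difference in the same direction, 0.35 or 1.27-fold. It read 8.17 and 8.24 in WT, 8.18 on the array labelled mut/mut 1, and 8.61 and 8.49 on mut/mut 2 and 3. The mean of the fibroblast markers was higher on the same 2 arrays.

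Because Ube2j1 is the only member that passed, the 250 bases before its RefSeq start are shown (GRCm38.p6, chr4:33031130-33031379, plus strand, 5′ to 3′). The same stretch is shown for its paralog Ube2j2, another tail-anchored ER enzyme whose level hardly differed with 2 RefSeq starts (chr4:155943563-155943812 and chr4:155943908-155944157, plus strand). Capitals mark matches, on either strand, to the motifs searched.
Ube2j1: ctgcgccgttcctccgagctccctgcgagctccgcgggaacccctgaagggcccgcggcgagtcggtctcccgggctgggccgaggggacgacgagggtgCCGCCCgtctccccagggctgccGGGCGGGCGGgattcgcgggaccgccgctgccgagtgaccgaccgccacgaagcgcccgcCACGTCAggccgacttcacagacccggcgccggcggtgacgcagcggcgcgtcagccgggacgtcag
Ube2j2, first start: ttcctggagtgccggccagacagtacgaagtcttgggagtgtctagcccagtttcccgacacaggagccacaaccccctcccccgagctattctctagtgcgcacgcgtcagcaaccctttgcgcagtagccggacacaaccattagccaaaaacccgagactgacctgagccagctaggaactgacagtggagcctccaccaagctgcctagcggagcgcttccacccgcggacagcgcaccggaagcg
Ube2j2, second start: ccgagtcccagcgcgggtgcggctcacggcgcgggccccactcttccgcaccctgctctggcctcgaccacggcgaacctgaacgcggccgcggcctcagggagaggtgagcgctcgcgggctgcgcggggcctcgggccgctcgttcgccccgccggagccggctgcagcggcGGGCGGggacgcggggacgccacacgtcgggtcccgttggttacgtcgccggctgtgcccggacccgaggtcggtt
The motifs were TGACGTG (the core of the unfolded protein response element), the ER stress element, TGATGNAAN (the amino acid response element), the core of the interferon response element, GGGCGG (the GC box) and CCAAT, which is also part of the ER stress element. The Ube2j1 window held 1 match to TGACGTG on the minus strand, 67 to 61 bases before the start, and 3 matches to GGGCGG, 2 of which overlap. TGACGTG was found in 1.65% of 32851 promoter windows of this length and in 1 of 36 windows of the E2 family, and GGGCGG in 32.7% and 72.2%. The first Ube2j2 window held none of the 6 motifs, and the second held 1 match to GGGCGG, 76 to 71 bases before its start. The window of Ube2l6, not shown, was searched as well and held none of the 6. The core of the interferon response element was found in 2.98% of all windows and in 0 of 36 of the E2 family. G and C made up 77.2% of the Ube2j1 window, and 61.2% and 77.6% of the Ube2j2 windows. A match is a description of the letters, not a site.

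The other E2 enzymes of ER protein degradation differed less. Ube2j2 read 10.77 on both WT arrays and on the array labelled mut/mut 1, and 10.83 and 10.68 on mut/mut 2 and 3, so these lay on either side of WT. Ube2g2, the soluble E2 of the same pathway, read 9.25 and 9.26 in WT, 9.25 on the array labelled mut/mut 1, and 9.43 and 9.45 on mut/mut 2 and 3. Its difference was 0.12 over all 5 arrays. It was 0.18 (SE 0.04) without the array labelled mut/mut 1, small and not past the test (limma, adjusted p = 0.15, and 0.173 with dim genes removed). Ube2g1, a related enzyme that extends chains, read 11.00 on both WT arrays, 11.03 on the array labelled mut/mut 1, and 10.62 and 10.90 on mut/mut 2 and 3. Its difference of -0.23 (SE 0.12) had the opposite sign to those of Ube2j1 and Ube2g2 and did not pass (limma, adjusted p = 0.408). It was -0.14 over all 5 arrays.

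Partners of these enzymes in the same pathway were listed after the values of Ube2j1 were seen. They are therefore a description and no test of the list. Of 18 measured partners, 17 had a positive and 1 a negative difference without the array labelled mut/mut 1, where 45.1% of all genes lay at or below 0. Their median was 0.29 beside 0.02 for all genes. Arrays mut/mut 2 and 3 lay above both WT arrays for 11 of the 18, against 26.7% of all genes. Over all 5 arrays the median was 0.18 and 0 passed in limma. Herpud1, an ER membrane adaptor of the ligase complex, was the single one that passed with dim genes removed (0.79, limma, adjusted p = 0.042), and differed by 0.50 over all 5 arrays. As 1 of 18, where 3.29% of all genes passed as higher, this call is no result about the list. Sel1l, the adaptor of the ligase Syvn1, read 9.09 and 9.08 in WT, 8.95 on the array labelled mut/mut 1, and 9.81 and 9.54 on mut/mut 2 and 3. Syvn1 itself differed by 0.44, whereas the segregase gene Vcp differed by 0.02. Neither Sel1l nor Syvn1 passed (limma with dim genes removed, adjusted p = 0.0699 and 0.0862).

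The broadly acting E2 enzymes, which serve many RING and HECT ligases, showed no shared direction. Of 8 measured members of this list 4 had positive and 4 negative differences, between -0.20 and 0.16, and 0 of the 7 tested with dim genes removed passed. Ube2e1 read 10.79 and 10.66 in WT, 10.66 on the array labelled mut/mut 1, and 10.68 and 10.36 on mut/mut 2 and 3, so only mut/mut 3 lay apart. Ube2d3 read 12.96 and 12.98 in WT, 12.99 on the array labelled mut/mut 1, and 12.58 and 12.96 on mut/mut 2 and 3, so only mut/mut 2 lay clearly apart. Ube2w, which attaches ubiquitin to the amino terminus of proteins, read 8.84 and 8.76 in WT, 8.84 on the array labelled mut/mut 1, and 8.96 on both other mutant arrays. Its difference of 0.16 (SE 0.05) was near that of Ube2g2 and did not pass (limma, adjusted p = 0.244). Its 3 probe sets above the median had differences between 0.10 and 0.32. Ube2e2, Ube2e3, Ube2d1 and Ube2d2a differed by 0.0003, 0.11, -0.02 and 0.01.

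The probe sets of the Ube2d genes disagreed with each other. These E2 enzymes are close paralogs, so signal between them is uncertain. Of the 19 members with several probe sets at or above the median of all values, 7 had probe sets of opposite sign, and for 2 of these, Ube2d-ps and Ube2d3, the span between them was over 0.5. For Ube2d3 the 7 probe sets ran from -0.45 to 0.14 without the array labelled mut/mut 1. For Ube2d2a, named after its values were seen, the probe set with the highest mean read 11.67 on mut/mut 2 and 11.22 on mut/mut 3, around a WT mean of 11.43. Its other 4 probe sets had differences of -0.18, -0.30, -0.22 and -0.28. On each of these 4 both mut/mut 2 and 3 lay below both WT arrays. None passed over all probe sets (limma, adjusted p between 0.144 and 0.328). The small difference of Ube2d2a in the family summary therefore rests on the choice of probe set.

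Ube2d-ps, the transcript named as a Ube2d pseudogene, had the largest difference over all 5 arrays and the second largest, after Ube2j1, without the array labelled mut/mut 1. It read 5.85 and 5.60 in WT, 5.94 on the array labelled mut/mut 1, and 6.46 and 6.25 on mut/mut 2 and 3. All mutant arrays lay above both WT arrays, which overlapped none of them. The difference was 0.63 (SE 0.13) without the array labelled mut/mut 1, 1.55-fold, and 0.49 (SE 0.18) over all 5 arrays. It did not pass (limma, adjusted p = 0.139 and 0.748, and 0.0757 with dim genes removed). The other probe set of Ube2d-ps had a difference of -0.21, with 5.59 and 5.79 in WT, 5.60 on the array labelled mut/mut 1, and 5.59 and 5.37 on mut/mut 2 and 3. The direction of this transcript thus depends on the probe set.

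**Figure D3:**
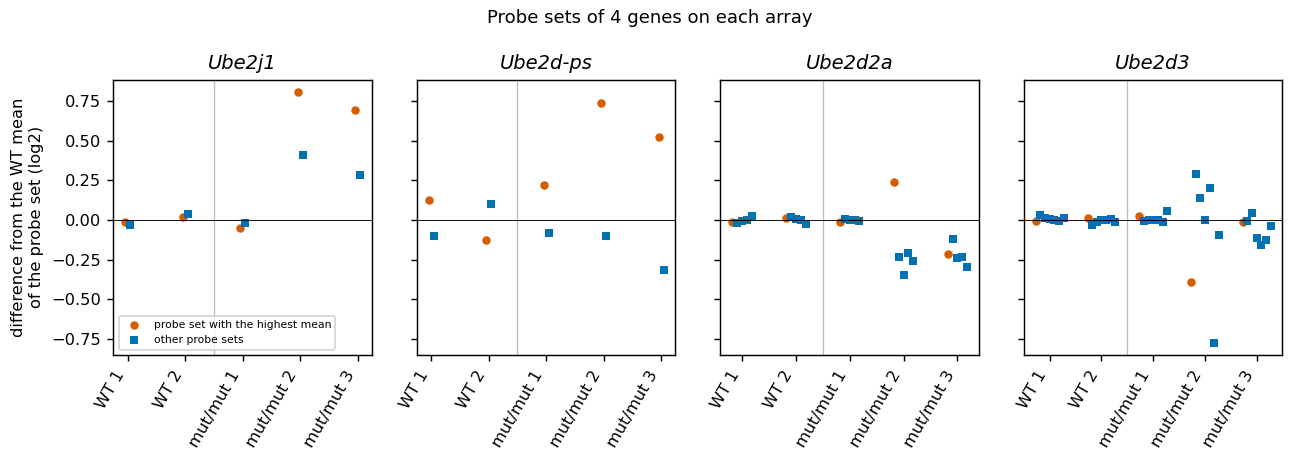
Values of each probe set at or above the median of all values, as a difference from that probe set's WT mean (vertical axis, log2), on each array for Ube2j1, Ube2d-ps, Ube2d2a and Ube2d3. Both Ube2j1 probe sets lie above WT on mut/mut 2 and 3, the Ube2d-ps probe sets part, and 4 of 5 Ube2d2a probe sets lie below WT on both arrays.

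Of 3 E2 enzymes of the cell cycle 0 passed in limma, over all 5 arrays or with dim genes removed and the array labelled mut/mut 1 left out. Ube2c, which starts chains for the anaphase-promoting complex (APC/C), read 11.82 and 11.78 in WT, 11.78 on the array labelled mut/mut 1, and 11.93 and 11.78 on mut/mut 2 and 3. Ube2s, which extends them, read 12.64 and 12.69 in WT, 12.64 on the array labelled mut/mut 1, and 12.22 and 12.63 on mut/mut 2 and 3. The Ube2s difference of -0.24 (SE 0.16) came mainly from mut/mut 2 and did not pass (limma, adjusted p = 0.521). It was -0.17 over all 5 arrays. Ube2r2, an E2 of cullin-RING ligases, differed by -0.06. Among 15 genes of the APC/C and its regulators 0 passed in limma with dim genes removed and the array labelled mut/mut 1 left out, with 6 positive and 9 negative differences and a median of -0.04. The largest were those of the scaffold subunit Anapc1 (-0.51), the APC/C inhibitor Fbxo5 (-0.43) and the substrate receptor subunit Anapc10 (-0.38). In each the value of mut/mut 2 was the lowest of the 5 arrays.

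On the probe sets with the highest mean, E2 enzymes of DNA damage tolerance and repair had the narrowest range of differences among the role lists. The differences of all 6 lay between -0.08 and 0.13, 3 on each side of 0, and 0 of 6 passed. The Rad6 homologs Ube2a and Ube2b differed by -0.01 and 0.13. Ube2n, which builds lysine-63 chains, read 10.32 and 10.29 in WT, 10.29 on the array labelled mut/mut 1, and 10.38 and 10.07 on mut/mut 2 and 3, so the latter lay on either side of WT. Its other probe set had a difference of -0.39, with 5.98 and 5.99 in WT and 6.10 on the array labelled mut/mut 1. There mut/mut 2 and 3 read 5.45 and 5.73, below both WT arrays. This probe set did not pass over all probe sets (limma, adjusted p = 0.294). The narrow range of the list thus rests on the choice of probe set. The inactive partners of Ube2n, Ube2v1 and Ube2v2, differed by -0.07 and 0.08, and Ube2t, the E2 of the Fanconi anaemia pathway, by 0.06. On the chosen probe sets all 6 intervals lay within 0.5 of 0, the widest being that of Ube2n, from -0.47 to 0.32.

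Of the E2 enzymes for ubiquitin-like proteins, 3 were measured. On the probe set with the highest mean all had positive differences, none of which passed. Ube2l6, the E2 for the interferon-induced modifier ISG15, read 5.26 and 5.0 in WT, 5.16 on the array labelled mut/mut 1, and 5.62 and 5.39 on mut/mut 2 and 3. Arrays mut/mut 2 and 3 lay above both WT arrays, but the WT arrays differed by 0.26 at this low signal. The difference without the array labelled mut/mut 1 was 0.38 (SE 0.14; limma, adjusted p = 0.298), and 0.26 over all 5 arrays. The ISG15-activating E1 gene Uba7 differed by 0.48 (adjusted p = 0.105, limma), or 0.30 over all 5 arrays, and read 7.06 and 7.13 in WT, 7.02 on the array labelled mut/mut 1, and 7.49 and 7.65 on mut/mut 2 and 3. The ISG15 ligase gene Herc6 and the ISG15 protease gene Usp18, chosen after these values were seen, differed by 0.32 and 0.67. Neither they nor Uba7 passed with dim genes removed (limma, adjusted p = 0.105, 0.0735 and 0.0635). Ube2f, a NEDD8 E2, read 9.88 and 9.89 in WT, 9.89 on the array labelled mut/mut 1, and 10.17 and 9.85 on mut/mut 2 and 3. Ube2z, which works with the E1 enzyme Uba6, differed by 0.07. Its other probe set above the median of all values had a difference of -0.33, with 5.98 and 6.03 in WT. That probe set read 5.98 on the array labelled mut/mut 1, and 5.56 and 5.79 on mut/mut 2 and 3. It did not pass over all probe sets (limma, adjusted p = 0.299). The shared positive direction of this list thus rests on the choice of probe set. Ube2m and Ube2l3 were not analysed here.

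The remaining members hold enzymes with various roles, and Ube2k had the lowest difference of the family. Ube2k builds lysine-48 chains and read 12.29 and 12.32 in WT, 12.27 on the array labelled mut/mut 1, and 11.80 and 12.13 on mut/mut 2 and 3. All 3 mutant arrays lay below both WT arrays, the array labelled mut/mut 1 only just. The difference without that array was -0.34 (SE 0.14), a 1.27-fold lower signal, and did not pass (limma, adjusted p = 0.32). It was -0.24 over all 5 arrays. Its 3 probe sets above the median had differences between -0.34 and -0.13. Ube2q2 read 9.21 and 9.20 in WT, 9.20 on the array labelled mut/mut 1 and on mut/mut 2, and 8.83 on mut/mut 3, so its difference of -0.19 came from 1 array. Ube2h, the E2 of the CTLH ligase complex, read 9.10 and 9.08 in WT, 9.10 on the array labelled mut/mut 1, and 9.14 and 9.37 on mut/mut 2 and 3. Ube2o, an enzyme with both E2 and E3 activity, differed by 0.03, Ube2q1 by 0.04, Ube2ql1 by 0.06 and Ube2cbp by -0.01. Ube2u was dim, with levels between 3.04 and 3.47 on the 5 arrays, and so was Ube2d2b, between 2.67 and 3.0.

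**Figure D4:**
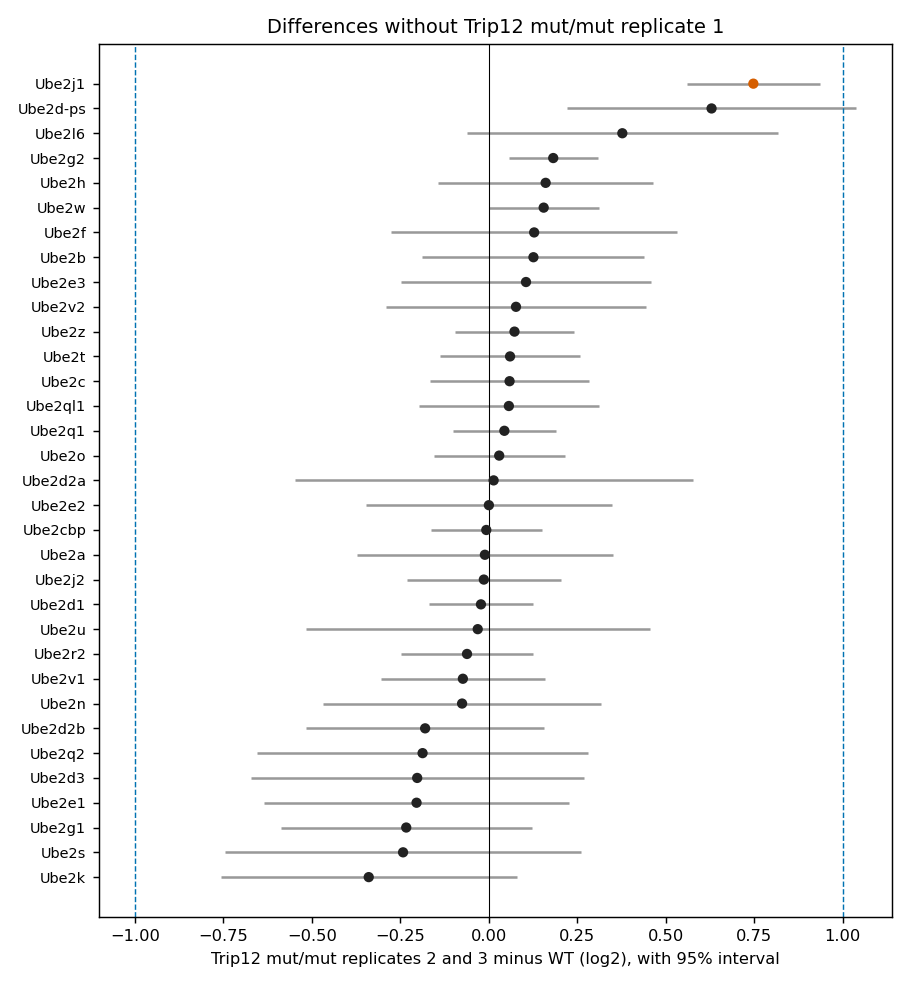
Difference of mut/mut 2 and 3 minus WT (horizontal axis, log2) for each of the 33 genes, with its 95% interval from limma as a bar, not adjusted for the number of genes; dashed lines mark 1 on either side of 0, a 2-fold change. The interval of 32 genes stays inside the lines, as it does for 92.0% of all genes, and Ube2j1 (orange) is the gene that passed with dim genes removed.

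Arrays mut/mut 2 and 3 did not move together for every member. They differed from each other by more than 0.3 for 8 of 33 members, against 23.5% of all genes. Array mut/mut 3 was the higher for 3 of these, Ube2d3, Ube2s and Ube2k, and the lower for the other 5, Ube2d2a, Ube2q2, Ube2e1, Ube2f and Ube2n. For Ube2j1 the arrays differed by 0.11.

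The rest of the conjugation machinery had no gene past the test. Of 7 measured E1 genes, 7 other genes that encode E2 enzymes or E2-like proteins and 8 genes for ubiquitin-like modifiers, 0 passed over all 5 arrays or with dim genes removed and the array labelled mut/mut 1 left out. Their medians without that array were 0.0076, -0.03 and 0.04, and over all 5 arrays -0.02, -0.02 and 0.03. Besides Uba7, the E1 genes with the largest differences were Atg7 of autophagy (0.42) and the SUMO E1 subunit Sae1 (-0.39). Among the other E2 genes these were Birc6 (-0.41), a giant inhibitor of apoptosis with an E2 domain, Atg3 (0.32), the E2 that attaches lipid to LC3, and the E2-like sorting protein Tsg101 (-0.20). Among the modifiers they were Atg12 (0.43), Sumo3 (-0.36) and Ufm1 (-0.31). Atg3 read 10.32 and 10.30 in WT, 10.38 on the array labelled mut/mut 1, and 10.72 and 10.53 on mut/mut 2 and 3, so all mutant arrays lay above WT. Birc6 read 9.85 and 9.81 in WT, 9.74 on the array labelled mut/mut 1, and 9.29 and 9.55 on mut/mut 2 and 3, so all lay below.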

How the data were processed

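RNA of 5 samples was measured on Affymetrix arrays. The deposited log2 values come from RMA, per the submitters' processing notes, a method that removes background, brings arrays to 1 distribution and joins probes into probe sets. No RMA version is stated. The file held 45101 probe sets, of which 64 array controls were left out. Array medians ran from 5.51 to 5.55, and RMA hides any change common to all transcripts. Precision is limited by how few arrays there are.

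The platform annotation gave 34945 probe sets 1 symbol, 932 several and 9160 none. Newer symbols were looked up by gene number in the GRCm38.p6 table (34741 matched), which left the 33 members as annotated. The test was limma 3.58.1 under R 4.3.3, two-sided and with no term but genotype, on all 18193 genes, with Benjamini-Hochberg adjustment at 0.05, and again without the array labelled mut/mut 1, with and without dim genes. Intervals are 95% intervals of the limma fit. The procedure was tested on simulated data. A first simulation, with each gene's own SD and changes of up to 2-fold, missed most of the changed genes over 5 arrays, and recovered none without the array labelled mut/mut 1 and with dim genes removed. Its noise and sizes were then both made more favourable, and most were recovered, so the simulations are no evidence of power, and counts of 0 do not show that nothing changed. Members, gene lists and comparisons were chosen with earlier results of these data known; the partners of ER degradation and of ISG15 were chosen after the values were seen here.

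Members named with values on every array were those that passed, the 8 with the largest absolute difference at or above the median, those whose probe sets had opposite signs by over 0.5, and up to 4 of each role list; other pathway lists name up to 3. Promoter sequences are RefSeq's, found for 27 of 33 members. Alternatives were other normalisations, filters, variance models, weights for arrays, blocking on the replicate number, leaving out each array, and other choices of probe set and symbols. Plots used matplotlib 3.10.9 (Python 3.11.15).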

Additional observations from a re-analysis of the deposited data

How the results depend on the processing

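Over all 5 arrays the count of E2 members past the threshold was 0 under each alternative run, and the median difference of the family moved by less than the spread between replicates. Without the array labelled mut/mut 1 the count, 0 at first, was 1 with quantile normalisation, 1 with centring of array medians and 1 with dim genes removed, each time Ube2j1 (limma, adjusted p = 0.0345, 0.0331 and 0.042). With each further array left out it ran from 0 to 14. With dim genes removed as well, the count of 1 was 2 with centring (Ube2j1 and Ube2d-ps, the latter with an adjusted p of 0.0496 in limma) and 0 with array weights (Ube2j1, adjusted p = 0.125 in limma). With each further array left out it ran from 0 to 16. The highest counts came without mut/mut 3 and the next, 5 and 7, without mut/mut 2. There 1 mutant array is assumed to vary like the WT arrays, whose spread alone sets the test, and 4912 and 2686 genes passed with dim genes removed. Over all 5 arrays Ube2g2 turned from 0.12 to -0.030 with the probe set of the largest SD. Over all genes, the 0 that passed without the array labelled mut/mut 1 became 710 with quantile normalisation, 736 with centring and 322 with the mean of probe sets; with dim genes removed, 539 became 998, 1190 and 1461, and 0 with array weights. The difference of Ube2j1 was positive under all alternatives run, between 0.32 and 0.80.

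The genotypes share replicate numbers 1 and 2, but nothing in the labels pairs them. Deviations of same-numbered arrays from their group means correlated at -0.05 and -0.08 across genes. With 2 WT arrays these deviations mirror each other in WT, so the correlations cannot decide whether arrays were paired. With the replicate block over 5 arrays 0 members passed and the median difference was 0.03. No WT array shares the number of mut/mut 3, so the block sets that array aside. The differences with the block therefore equal those without mut/mut 3, and the block is no separate check. Without the array labelled mut/mut 1 the block could not be fitted, as it left no residual degrees of freedom. With few arrays, differences well below 0.5 could not be told from none for most members.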
